A study of Mus musculus with 5 samples.

Results

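The synaptotagmin genes Syt1, Syt2, Syt4, Syt5, Syt7, Syt9, Syt11, Syt13, Syt14 and Syt16 were described in RNA sequencing of mouse tumours and normal pancreas. These 10 genes were taken by symbol from a gene table of 55573 genes, and all 10 were among the 16810 genes with enough counts to be tested. The table holds 7 other genes named Syt, of which 4 were tested. The 3 tumour libraries came from Th-Cre:MYC mice, in which Cre recombinase under the promoter of tyrosine hydroxylase (Th), an enzyme of catecholamine synthesis, removes a stop in front of a MYC transgene driven by the CAG promoter. The 2 normal libraries came from the pancreas of wild-type littermates, whose genotype is given as wild type. Normal pancreas was perfused with RNAlater, a solution that inhibits RNases, before it was removed, and the labels do not say that tumours were perfused. Tumours were followed by ultrasound, and a column kit served to extract total RNA from either tissue. The series' design text calls the tumours tumours of the pancreas. The labels give no age, sex or batch and do not say whether the libraries keep strand. Library names in the count data open with serial numbers, which form separate runs for tumour and normal pancreas. What these numbers mean is not stated, and a batch that follows tissue could not be told apart from tissue. Titles of tumours 1 and 2 carry a common number that tumour 3 lacks, and it is not stated whether that means a common animal. All p-values thus reflect only how far these libraries spread, and that spread may be partly technical.

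Synaptotagmins are vesicle and membrane proteins with a pair of C2 domains that bind phospholipids and the SNARE proteins that fuse vesicles with the plasma membrane. In Syt1, Syt2, Syt5, Syt7 and Syt9 the C2 domains bind calcium, and these proteins are sensors that couple calcium entry to release of transmitters and hormones, with Syt7 of high affinity and slow kinetics and Syt1, Syt2 and Syt9 fast. Syt4, Syt11, Syt13, Syt14 and Syt16 lack the full set of calcium-binding residues and have less well defined roles in vesicle traffic. In the pancreas, islet cells use Syt7 and other members for hormone release, whereas acinar cells secrete zymogen granules through a largely different set of fusion proteins.

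Promoter sequence is shown because the tumours carry a MYC transgene and because the members were higher together in the tumours. The dimer of MYC with MAX binds the E-box CACGTG. The mouse gene Myc was lower in tumour than in normal pancreas in the fit used below (log2 -4.81, edgeR adjusted p = 4.52e-05). It was also lower with total counts alone (log2 -1.62, edgeR adjusted p = 0.00352). How far reads of the transgene enter the Myc values was not tested. RefSeq promoter windows on GRCm38.p6, from 250 bases before to 50 bases after a gene's start, were on hand for 6 of the 10 members. The E-box was found in the window of Syt14 alone among these 6, against 7.15% of all 32851 windows. The GC box, GGGCGG or CCGCCC on the other strand, was found in 6 of 6 members against 35.7% of all windows. Neither TTCAGCACC, the left part of the RE1 element bound by the neuronal gene repressor REST, nor the cyclic AMP element TGACGTCA was found in the 6 windows on either strand, against 0.371% and 1.79% of all windows. Members are counted here by gene, with a match in any window of the gene, whereas the percentages are of single windows. These matches describe letters and are not sites of binding. The motifs were chosen after values of these data were known. The 250 bases upstream of Syt14 (chr1:193035776-193036025, - strand) hold the E-box, which begins 77 bases before the start, and 4 GC boxes, of which the last pair overlap. The 250 bases upstream of Syt2 (chr1:134646362-134646611, + strand) hold 3 GC boxes and no E-box. They are printed 5′ to 3′ with E-boxes and GC boxes in capitals, Syt14 as the window with the E-box and Syt2 for comparison.
Syt14: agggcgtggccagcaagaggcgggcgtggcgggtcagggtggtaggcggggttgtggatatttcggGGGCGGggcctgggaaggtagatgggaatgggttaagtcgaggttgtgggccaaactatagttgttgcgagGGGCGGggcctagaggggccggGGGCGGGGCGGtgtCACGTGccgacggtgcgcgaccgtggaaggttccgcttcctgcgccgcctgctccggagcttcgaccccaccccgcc
Syt2: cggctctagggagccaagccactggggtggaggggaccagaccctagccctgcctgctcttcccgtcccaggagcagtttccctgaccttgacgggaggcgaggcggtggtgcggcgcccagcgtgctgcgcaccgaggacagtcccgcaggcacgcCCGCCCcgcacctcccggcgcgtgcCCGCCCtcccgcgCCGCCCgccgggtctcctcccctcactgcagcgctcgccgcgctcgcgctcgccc

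Libraries held 6611967 to 15074489 estimated counts in tumour and 48848987 to 51669489 in normal pancreas. Counts are given below as CPM, counts relative to a library size scaled by TMM, a method that assumes most genes are unchanged. The TMM factors were 0.263 to 0.271 in normal pancreas and 2.19 to 2.57 in tumour, so the scaling matters here. Over all genes tested, the median log2 fold change was 0.38 with TMM and 3.55 with total counts alone. RNAs of the misc_RNA class took 63.0% to 66.2% of the summed TPM (a level per transcript length that sums to the same total in every library) in tumour and at most 0.0101% in normal pancreas. TPM of a protein-coding gene is thus diluted in tumour, and TPM is used below for order and shares within a library and for likeness between genes, which share the dilution of a library, not for folds between tissues. The tissue labels were checked on 10 acinar markers, which summed to 1443770 and 1473360 CPM in the normal libraries and to 42.9, 22.4 and 982 CPM in tumours 1, 2 and 3.

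All 10 synaptotagmins were higher in tumour than in normal pancreas by edgeR's quasi-likelihood test (Benjamini-Hochberg adjusted p under 0.05 over all genes tested). For comparison, 39.2% of all tested genes were called higher and 27.8% lower. In 10 of 10 members every tumour library lay above both normal libraries, against 46.8% of tested genes. Most of these genes were at or near 0 in normal pancreas and passed the filter on low counts through their tumour counts, so the count of 10 is in part set by that filter. The median log2 fold change of the members was 7.59, or 7.42 with the 2 genes at 0 in normal pancreas set to their lower bounds. In bulk tissue, fewer cells that express a gene and less RNA of it per cell cannot be told apart.

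**Figure D1:**
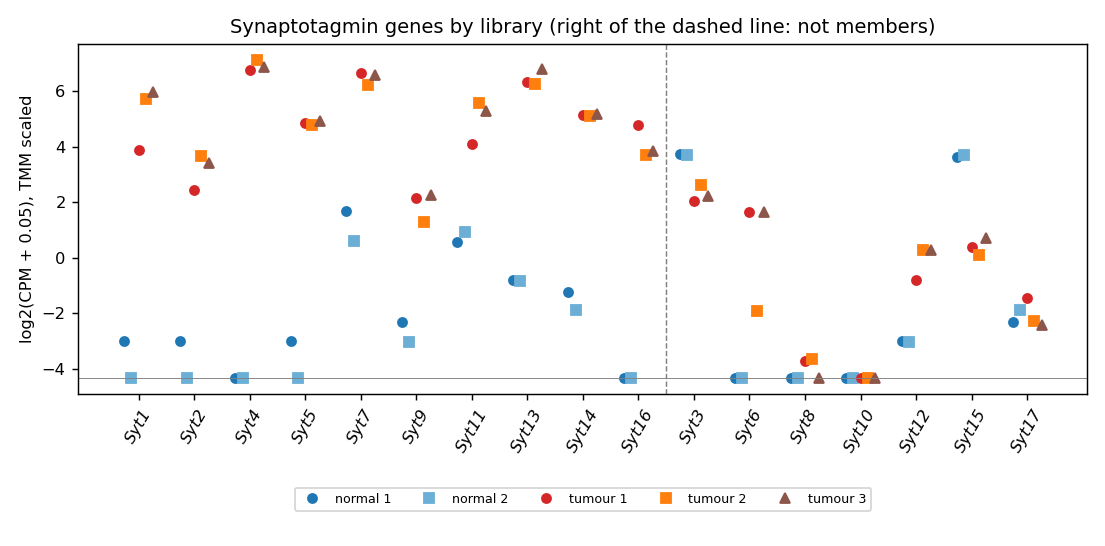
Each point is a library's level of a synaptotagmin gene as log2(CPM + 0.05) with TMM scaling, and the grey line marks 0 counts. In the 10 members left of the dashed line every tumour point lies above both normal points. Among the 7 other genes on the right, Syt3 and Syt15 lie lower in tumour on this scale, but with total counts alone Syt3 turns to higher and Syt15 no longer passes.

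Of the cell type markers, those of islet, neuron, Schwann cell and endothelium had a higher summed level in every tumour than in either normal library. The summed level of duct markers was lower in every tumour. The 8 islet endocrine markers summed to 62.1 and 67.5 CPM in the normal libraries and to 26456, 10798 and 21235 CPM in the tumours. Most of each tumour sum was the somatostatin gene Sst, at 18310, 7464 and 14973 CPM in tumours 1, 2 and 3. Of the 8 genes 6 were called higher, and the insulin genes Ins1 (log2 -0.87, edgeR adjusted p = 0.378) and Ins2 (log2 -1.35, edgeR adjusted p = 0.162) did not pass. The 8 neuron markers summed to 3.48 and 1.69 CPM in the normal libraries and to 128, 50.6 and 83.7 CPM in the tumours, and 6 of 7 tested were called higher. Of 8 markers of sympathoadrenal cells, which use Th, Dbh was at 0 counts in all 5 libraries. Th itself had 0 counts in both normal libraries and 428, 194 and 15 counts in tumours 1, 2 and 3, at least 67.5-fold higher (edgeR adjusted p = 0.0104), and at least 33.7-fold with normal 1 alone, 34.2-fold with normal 2 alone and 40.2-fold without tumour 1. The 8 genes summed to 14.0 and 15.5 CPM in the normal libraries and 35.7, 12.3 and 5.40 CPM in tumours. Most of the normal sum was Ddc, at 12.9 and 14.8 CPM against 22.8, 4.99 and 3.53 CPM in the tumours. Ddc did not pass (log2 -0.38, edgeR adjusted p = 0.667). The 5 Schwann cell markers summed to 0.907 and 1.03 CPM in the normal libraries and 1.42 to 1.80 CPM in tumour. Duct markers summed to 3727 and 4044 CPM in the normal libraries and 52.0 to 109 CPM in tumour. Most of the normal duct sum was Tff2, at 3864 and 3569 CPM in normal 1 and 2. Of the 7 duct genes, 4 were called lower, 2 did not pass, and Krt7 was called higher (log2 3.12, edgeR adjusted p = 4.29e-05). Over all tested genes 39.2% were called higher and 27.8% lower. Fibroblast markers summed to 233 and 301 against 297 to 539 CPM, endothelial markers to 73.0 and 98.0 against 98.5 to 125 CPM, and immune markers to 20.3 and 33.0 against 25.2 to 72.8 CPM. The part of these cell types in the levels of the synaptotagmins was not tested.

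Among the calcium sensors, Syt7 was the only gene with more than a trace in normal pancreas. Syt7 (ENSMUSG00000024743.16, GRCm38 chr19:10389090-10453180, + strand) had 3.18 and 1.47 CPM in normal 1 and 2 and 101, 74.6 and 94.9 CPM in tumours 1, 2 and 3. The groups were far apart, and the 2 normal libraries differed from each other by more than the tumours did in proportion. Syt7 rose by 5.28 in log2 terms (SE 0.37, edgeR adjusted p = 7.56e-05), by 5.93 without normal 1 and by 4.84 without normal 2. Its exons overlap those of the long non-coding gene Gm26859 on the other strand, which held 1 count in tumour 3 and 0 elsewhere.

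The fast sensors of neurons were all but missing from normal pancreas. Syt1 (ENSMUSG00000035864.14, chr10:108497650-109010982, - strand), the sensor for synchronous release in forebrain synapses, had 1 and 0 counts in the normal libraries and 552, 1700 and 900 counts in the tumours. In CPM these were 0.0756 and 0 against 14.7, 52.6 and 62.3, so tumour 1 was the low tumour but stood far above both normal libraries. The ratio of pooled counts was 1002-fold (95% exact binomial interval 180 to 39571, edgeR adjusted p = 6.33e-04). It rests on 1 normal count, and was 500-fold without normal 2 and at least 169-fold without normal 1. Intervals and lower bounds here cover counting error only, because the libraries have no molecular identifiers named in the labels and reads may be copies.

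Syt2 (ENSMUSG00000026452.15, chr1:134646677-134762593, + strand), the fast sensor of hindbrain and neuromuscular synapses, had 0.0756 and 0 CPM in the normal libraries and 5.40, 12.7 and 10.5 CPM in tumour. Tumour 1 was again the lowest of the tumours, and the groups did not overlap. The pooled ratio was 242-fold (95% interval 43.4 to 9588, edgeR adjusted p = 3.56e-04), 121-fold without normal 2 and at least 40.9-fold without normal 1. Syt9 (ENSMUSG00000062542.11, chr7:107370728-107548656, + strand), a fast sensor found in endocrine cells as well as neurons, was the lowest member in tumour. It had 0.151 and 0.0737 CPM in the normal libraries against 4.36, 2.38 and 4.71 CPM in the tumours. Its ratio was 32.7-fold (95% interval 11.1 to 160, edgeR adjusted p = 6.62e-04), 49.7-fold without normal 1 and 24.5-fold without normal 2.

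Syt5 (ENSMUSG00000004961.7, chr7:4539765-4547541, - strand), a calcium-binding member found on dense-core vesicles, was even among the tumours. It had 0.0756 and 0 CPM in the normal libraries and 28.9, 27.6 and 29.9 CPM in tumour. The pooled ratio was 765-fold (95% interval 137 to 30246, edgeR adjusted p = 2.37e-05), 382-fold without normal 2 and at least 129-fold without normal 1. Over the 5 calcium sensors the median log2 fold change was 7.79, and over the 5 members without a full calcium site it was 7.39.

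Of the members without a full calcium site, Syt4 and Syt16 were at 0 counts in both normal libraries. Syt4 (ENSMUSG00000024261.6), which sits on dense-core vesicles and modulates peptide and hormone release, had 107, 139 and 116 CPM in the tumours, the highest CPM of any member. Tumour Syt4 was at least 1079-fold higher than a floor of 3 counts over the normal group (edgeR adjusted p = 2.49e-05), and at least 538-fold with normal 1 alone and 546-fold with normal 2 alone. Syt16 (ENSMUSG00000044912.10, chr12:73997661-74273267, + strand), a member without a transmembrane segment, had 27.2, 12.9 and 14.3 CPM in the tumours, with tumour 1 well above the other tumours. It was at least 174-fold higher (edgeR adjusted p = 3.66e-04), and at least 87.0-fold with normal 1 alone and 88.3-fold with normal 2 alone. Both genes have an antisense neighbour with overlapping exons, Gm26658 for Syt4 and Gm29587 for Syt16, and these held at most 1 count in any library.

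Syt13, Syt14 and Syt11 were counted at low levels in normal pancreas. Syt13 (ENSMUSG00000027220.2, chr2:92915098-92956058, + strand), which is expressed in islet cells and their precursors, had 0.529 and 0.516 CPM in the normal libraries and 80.2, 76.3 and 109 CPM in tumour. It rose by 7.39 in log2 terms (SE 0.30, edgeR adjusted p = 2.37e-05). Syt14 (ENSMUSG00000016200.14, chr1:192891233-193035775, - strand), the gene with the E-box window shown above, had 0.378 and 0.221 CPM in the normal libraries and 35.3, 34.2 and 36.2 CPM in tumour. These tumour values lay closer together than those of any other member, and Syt14 rose by 6.86 (SE 0.24, edgeR adjusted p = 1.75e-05).

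Syt11 (ENSMUSG00000068923.14, chr3:88744700-88775164, - strand), a calcium-independent member that acts in endocytosis and membrane traffic of neurons and glia, had the smallest rise. It had 1.44 and 1.84 CPM in the normal libraries and 16.98, 46.9 and 38.4 CPM in tumour, with tumour 1 again low. Syt11 rose by 4.37 (SE 0.53, edgeR adjusted p = 6.18e-04). Its estimated counts in tumour, 639.42, 1514.63 and 553.91, were not whole, which RSEM gives when reads match more than 1 place and are divided between them.

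Per transcript length, 4 genes supplied most synaptotagmin transcript in the tumours. Mean tumour TPM was 26.4 ± 4.82 for Syt4, 23.2 ± 3.04 for Syt5, 19.8 ± 4.09 for Syt7 and 19.8 ± 1.76 for Syt13 (SD, n = 3), and neighbours in this order overlapped. Another tier followed, apart from the first in every tumour: Syt1 at 7.96 ± 4.28, Syt11 at 6.67 ± 2.99, Syt16 at 4.25 ± 2.27 and Syt14 at 3.8 ± 0.364 TPM (SD, n = 3), again with overlapping neighbours. Syt2, at 0.88, 1.78 and 1.28 TPM in tumours 1, 2 and 3, and Syt9, at 0.873 ± 0.277 TPM (SD, n = 3), were lowest and overlapped each other. The leading 4 comprised Syt5 and Syt7 with a calcium site and Syt4 and Syt13 without a full one. The order is described from these libraries and was not tested.

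Shares of the family total do not depend on how libraries are scaled. Calcium sensors held 55.3% and 37.0% of the members' TPM in normal pancreas and 47.9%, 44.1% and 48.0% in tumour (means 46.2% ± 12.9, SD, n = 2, and 46.7% ± 2.19, SD, n = 3; exact permutation p = 1.0, two-sided). Within that, Syt7 took 44.7% and 33.3% in the normal libraries and 20.9%, 13.9% and 17.3% in tumour, and Syt11 took 26.3% and 44.4% in the normal libraries and 3.45%, 8.30% and 5.72% in tumour. Both were lower in every tumour (exact permutation p = 0.1 for each, the smallest that 10 splits of 3 against 2 libraries allow). Syt4 took 22.2%, 26.4% and 20.6% and Syt5 22.6%, 19.3% and 19.1% in tumour, against at most 2.63% of the members' TPM in a normal library for either. Syt13 held 13.2% and 14.8% in the normal libraries against 17.2%, 15.0% and 20.1% in the tumours, with every tumour share above both normal shares (exact permutation p = 0.2, where 0.1 is the smallest possible). Shares in normal pancreas rest on few reads, at most 42 counts of any member in a library.

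The other synaptotagmins made up most of the family in normal pancreas. Over all 17 genes, Syt3, a calcium-binding member known for internalising glutamate receptors in neurons, took 55.3% and 57.1% of family TPM in normal pancreas and 1.80%, 1.92% and 1.59% in tumour. Syt15, a member that does not bind calcium, took 32.6% and 34.2% in the normal libraries and 0.316%, 0.204% and 0.292% in tumour. The pair, summed after their values were seen, held 89.6% ± 2.39 (SD, n = 2) of the family in the normal libraries against 2.04% ± 0.139 (SD, n = 3) in the tumours. The 10 members held 9.37% ± 2.56 (SD, n = 2) and 97.2% ± 0.264 (SD, n = 3), with an exact permutation p of 0.1, the smallest possible. No p-value is given for the pair, which was picked by its values. The members too were chosen with earlier results of these data known, so their p is not an independent test. The pair and the members nearly fill the family between them, so these are not separate results. No tumour share overlapped a normal share in either comparison.

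**Figure D2:**
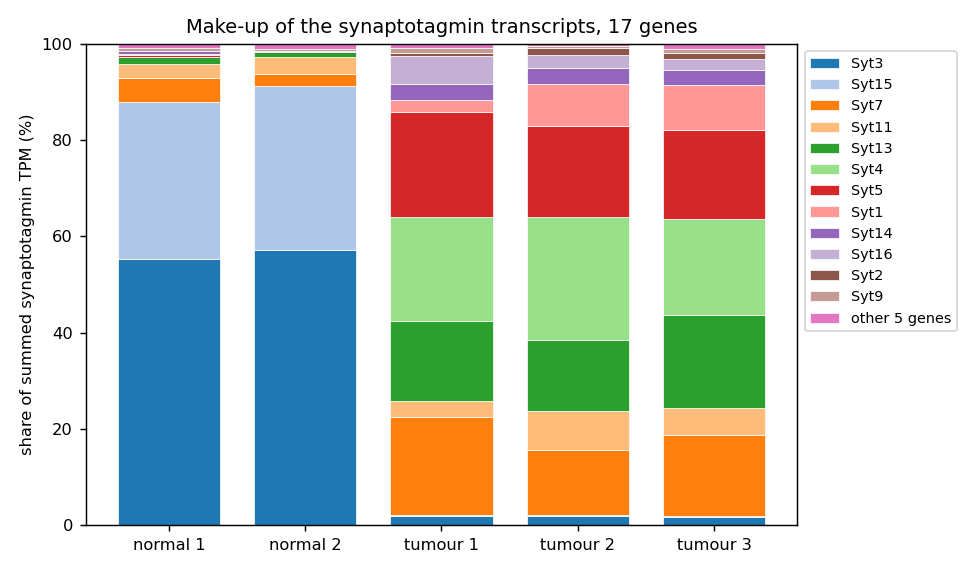
Each bar is a library and each segment a gene's share of the summed TPM of the 17 synaptotagmin genes, in percent. Syt3 and Syt15 fill 87.9% and 91.3% of the normal bars, and Syt4, Syt5, Syt7 and Syt13 fill most of the tumour bars.

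Of the 4 other synaptotagmins tested, 2 were called higher and 2 lower, and their median log2 fold change was 1.09. Syt3 (ENSMUSG00000030731.13, chr7:44384102-44400187, + strand) had 13.3 and 12.9 CPM in the normal libraries and 4.09, 6.16 and 4.64 CPM in tumour. It fell by 1.40 in log2 terms with TMM (SE 0.22, edgeR adjusted p = 0.00168), but was higher by 1.79 with total counts alone (edgeR adjusted p = 7.29e-04), so its direction is set by the scaling. Syt15 (ENSMUSG00000041479.14, chr14:34219595-34230420, + strand) had 12.2 and 13.0 CPM in the normal libraries and 1.28, 1.02 and 1.59 CPM in tumour. It fell by 3.31 with TMM (SE 0.24, edgeR adjusted p = 8.75e-05) and missed the threshold with total counts alone (log2 -0.13, edgeR adjusted p = 0.708).

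The remaining 5 genes were rare in both tissues. Syt6, known from the sperm acrosome, had 0 counts in the normal libraries and 116, 7 and 45 in the tumour libraries, a difference of at least 17.8-fold (edgeR adjusted p = 0.0259). The Syt6 call was lost without normal 1 (edgeR adjusted p = 0.0867), normal 2 (0.0878) or tumour 3 (0.0541), and the bound was 9.99-fold without tumour 1, 27.8-fold without tumour 2, 9.01-fold without normal 1 and 8.88-fold without normal 2. Its exons overlap the other-strand gene Atg4a-ps, which held 4.43 to 36.94 counts in every library. Syt12, a member that does not bind calcium, had 1 count in each normal library and 20, 38 and 17 counts in the tumours. The Syt12 ratio was 11.9-fold (95% interval 3.19 to 100, edgeR adjusted p = 0.00657), and its call was lost without normal 2 (edgeR adjusted p = 0.0505). Syt8 had at most 1 count in a library, Syt10 had 0 in all, and Syt17 had 2 and 3 counts in the normal libraries and 12, 5 and 2 in the tumours, so these 3 were not tested.

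Normal pancreas holds few endocrine cells, so the members were also set against genes of the secretory granule and neuroendocrine cell. Library scaling then came from 20 of the 23 genes of such a list, which includes Chga, Pcsk1, Cpe and Ptprn and holds no synaptotagmin. Chga and Chgb of this list are also islet markers above, and Syp is also in the fusion gene list below. These 23 genes summed to 167 and 195 CPM in the normal libraries and 8159, 4928 and 8791 CPM in tumour. Most of the normal sum was Ptprn2, at 95.4 and 124 CPM against 133, 100 and 139 CPM in the tumours. Ptprn2 did not pass (log2 0.17, edgeR adjusted p = 0.479). The scaling used the median of ratios over genes and not this sum, and scaling on the sum was not tested. At equal granule level 4 members were called higher and 2 lower, against 0.886% of all tested genes called higher and 84.5% lower. The list was chosen with results of these data known, and standard errors leave out the error of this reference.

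Syt7 and Syt11 were the members called lower at equal granule level. Syt7 had 1026 and 523 granule-scaled counts in the normal libraries and 277, 194 and 179 in tumour, and fell by 1.84 in log2 terms (SE 0.41, edgeR adjusted p = 1.68e-04). Syt11 had 464 and 653 granule-scaled counts in the normal libraries and 46.4, 122 and 72.2 in tumour, and fell by 2.80 (SE 0.48, edgeR adjusted p = 7.97e-06). In both genes all tumour libraries lay below both normal ones, the reverse of the order in CPM. With scaling on islet transcription factors in place of granule genes, the sign of the fitted fold change turned again. Syt7 was higher by 2.17 (edgeR adjusted p = 7.80e-06) and Syt11 by 1.39 (edgeR adjusted p = 0.00853). For Syt11 tumour 1 lay below normal 2 on that scaling, so its libraries were not fully apart.

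Syt13 and Syt14, which rose strongly in CPM, did not pass in either direction at equal granule level. Syt13 had 171 and 183 granule-scaled counts in the normal libraries and 219, 198 and 206 in tumour (log2 0.23, SE 0.51, edgeR adjusted p = 0.680). Syt14 had 122 and 78.4 in the normal libraries and 96.5, 88.7 and 68.2 in tumour, with overlapping groups (log2 -0.25, SE 0.64, edgeR adjusted p = 0.715). Syt2 (log2 0.83, SE 1.39, edgeR adjusted p = 0.594) and Syt9 (log2 -2.07, SE 1.08, edgeR adjusted p = 0.0781) did not pass either, and a p above the threshold does not show that levels were alike. Scaled on islet transcription factors, where 8.54% of all tested genes were called higher and 70.8% lower, Syt13 was higher by 4.29 (edgeR adjusted p = 1.83e-13), Syt14 by 3.796 (edgeR adjusted p = 1.82e-08) and Syt2 by 4.97 (edgeR adjusted p = 1.74e-05), while Syt9 did not pass (log2 1.91, edgeR adjusted p = 0.0778).

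Syt4 was called higher even against the granule genes, at least 7.94-fold (edgeR adjusted p = 1.08e-05), and it was called in each fit that left out 1 library. The bound was 4.10-fold against normal 1 alone and 3.84-fold against normal 2 alone. Syt1 (7.37-fold, 95% interval 1.32 to 291, edgeR adjusted p = 0.0243), Syt5 (5.63-fold, 95% interval 1.01 to 223, edgeR adjusted p = 0.0483) and Syt16 (at least 1.28-fold, edgeR adjusted p = 0.0245) were called as well. These 3 calls rest on at most 1 normal count each. Against normal 1 alone the Syt1 and Syt5 ratios were 3.81 and 2.91, against normal 2 alone, with 0 counts, their bounds were 1.19 and 0.907, and the Syt16 bound no longer exceeded 1 against either normal library alone. Syt1 lost its call without normal 2 (edgeR adjusted p = 0.124), tumour 2 (0.0900) or tumour 3 (0.0573). Syt5 lost its call without normal 1 (0.0527), normal 2 (0.279), tumour 1 (0.0602) or tumour 2 (0.0920), and Syt16 without normal 1 (0.113) or normal 2 (0.0772), all by edgeR adjusted p.

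**Figure D3:**
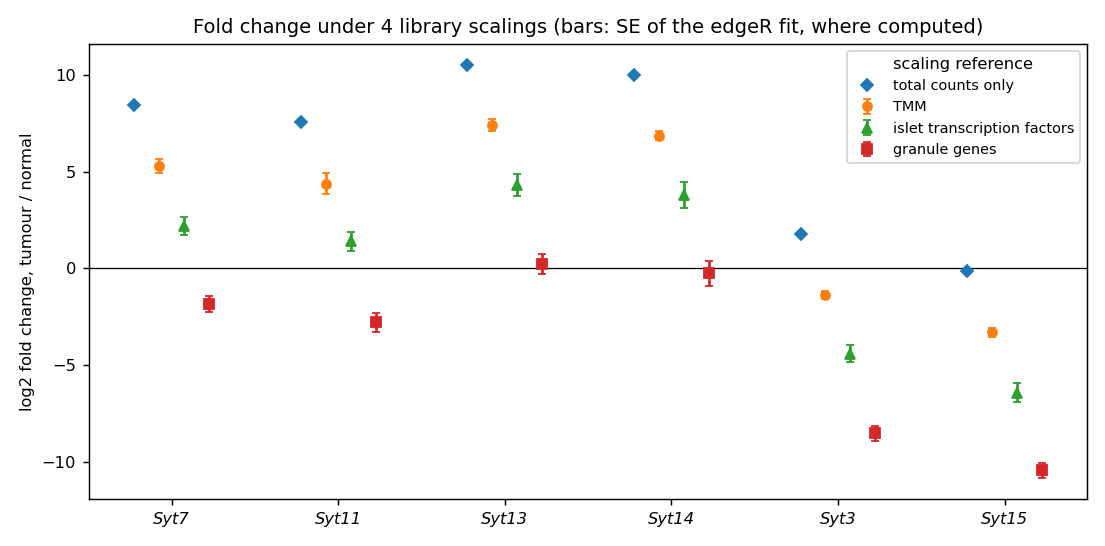
Points are log2 fold changes of tumour over normal pancreas under 4 library scalings for the 4 members with more than 3 normal counts and for Syt3 and Syt15, and bars are standard errors of the edgeR fit where computed. All 4 members lie above 0 with total counts, TMM and islet transcription factors, while with granule genes Syt7 and Syt11 lie below 0 and Syt13 and Syt14 within a standard error of it, and Syt3 crosses 0 between total counts and TMM.

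The estimated transcript length of a gene, an average over its isoforms weighted by abundance, was compared for the 2 members with 10 or more counts in every library. For Syt7, which has 15 annotated transcripts of 236 to 6624 bases, it was 5859 and 4851 bases in normal pancreas and 3896, 3960 and 3795 bases in tumour. Every tumour value lay below both normal values, with means of 5355 and 3884 bases (exact permutation p = 0.1, the smallest possible). The difference, tumour minus normal, was -1471 bases, and -967 bases without normal 1. For Syt11, lengths were 4567 bases in both normal libraries and 3968, 4159 and 4599 bases in tumour, and the groups overlapped (exact permutation p = 0.4). The normal values of Syt7 come from 42 and 20 counts.

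Members differed widely in how even they were among the 3 tumours. The highest tumour CPM was 1.06 times the lowest for Syt14, 1.08 for Syt5, 1.30 for Syt4, 1.36 for Syt7 and 1.43 for Syt13. It was 1.97 times for Syt9, 2.10 for Syt16, 2.35 for Syt2, 2.76 for Syt11 and 4.25 for Syt1, against a median of 1.39 over 13627 tested genes with a mean tumour CPM of 1 or more. Syt1, Syt2, Syt4 and Syt11 were lowest in tumour 1, and the other 6 members were lowest in tumour 2. Syt16 and Syt7 were highest in tumour 1, the reverse of Syt1 and Syt11. Tumours 1 and 2, whose titles share a number, were thus often on opposite sides, and no test was made on these 3 libraries.

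**Figure D4:**
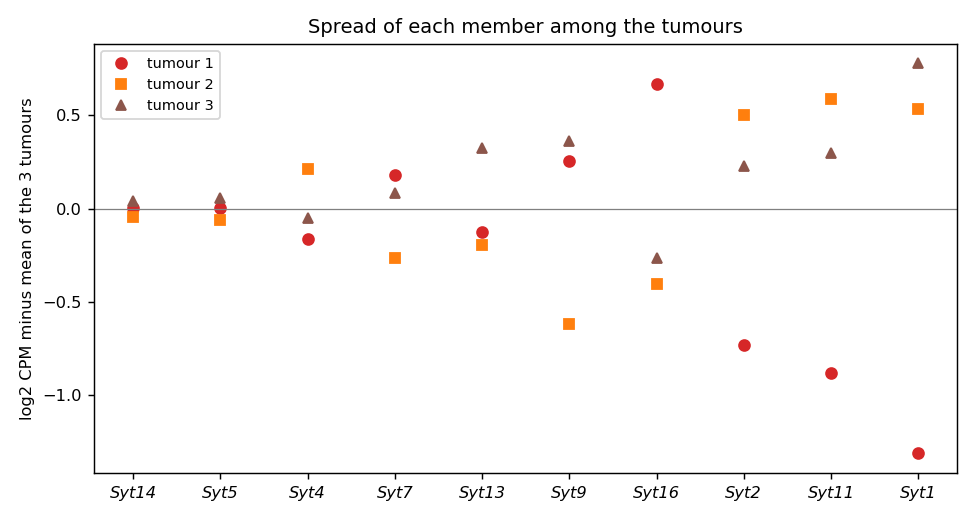
Points are the log2 CPM of each member in a tumour library minus that member's mean over the 3 tumours, with members ordered by spread. Points for Syt14 and Syt5 almost coincide, while Syt2, Syt11 and Syt1 have tumour 1 far below the other tumours and Syt16 has it above.

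The partners of synaptotagmins in neurons and endocrine cells were mostly higher in tumour. Of 26 tested genes of 27 in a list of neuronal and endocrine fusion genes, 17 were called higher, 2 lower and 7 did not pass, with a median log2 fold change of 3.58. This compares with 39.2% of all tested genes called higher and 27.8% lower. With total counts alone all 26 were called higher, as were 93.3% of all tested genes. Snap25, the plasma membrane SNARE that binds Syt1, had 0 counts in both normal libraries and 47.2, 43.1 and 48.1 CPM in tumour. It was at least 409-fold higher (edgeR adjusted p = 2.37e-05), and at least 204-fold with normal 1 alone and 207-fold with normal 2 alone. Unc13a, a priming factor, had 0.151 and 0.147 CPM in the normal libraries and 57.4, 43.5 and 53.3 CPM in tumour, and rose by 8.37 (SE 0.29, edgeR adjusted p = 1.75e-05). Rab3c, a vesicle GTPase, was 684-fold higher by pooled counts (95% interval 189 to 5651, edgeR adjusted p = 1.63e-05).

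Fusion genes of exocrine cells and of wide expression were mostly lower in tumour with TMM, but not with total counts alone. Of 16, all tested, 1 was called higher and 11 lower with TMM (median log2 fold change -0.997), whereas 13 were called higher and 1 lower with total counts alone. Over all tested genes 39.2% were called higher and 27.8% lower with TMM, and 93.3% higher and 2.37% lower with total counts alone. Vamp8, the main vesicle SNARE of zymogen granules, had 66.8 and 58.3 CPM in the normal libraries and 7.87, 7.40 and 6.23 CPM in tumour, and fell by 3.12 with TMM (SE 0.16, edgeR adjusted p = 3.22e-05) but not with total counts alone (log2 0.07). Rab3d, a GTPase of zymogen granules, had 329 and 347 CPM in the normal libraries and 31.8, 30.9 and 39.1 CPM in tumour, and fell by 3.32 with TMM (SE 0.17, edgeR adjusted p = 3.42e-05) but did not pass with total counts alone (log2 -0.15). Napa, which encodes the alpha-SNAP protein that recycles SNAREs in all cells, fell by 1.36 with TMM (SE 0.13, edgeR adjusted p = 2.26e-04) and was higher by 1.82 with total counts alone.

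Related C2 proteins were mixed. Of 11 tested of 13 listed, 6 were called higher, 3 lower and 2 did not pass, with a median of 0.88, shares not far from the 39.2% and 27.8% of all tested genes. With total counts alone 10 were called higher, against 93.3% of all tested genes. Sytl4, a synaptotagmin-like Rab27 effector on hormone granules, had 4.01 and 3.61 CPM in the normal libraries and 0.425, 0.155 and 0.346 CPM in tumour, and fell by 3.61 with TMM (SE 0.48, edgeR adjusted p = 9.29e-04) but did not pass with total counts alone (log2 -0.45). Sytl1, a Rab27 effector of exocrine cells, had 30.2 and 30.9 CPM in the normal libraries and 7.92, 6.44 and 5.75 CPM in tumour, and fell by 2.18 with TMM (SE 0.17, edgeR adjusted p = 1.14e-04) but was higher by 1.01 with total counts alone. Sytl5 had 0.454 and 1.33 CPM in the normal libraries and 16.5, 6.29 and 12.5 CPM in tumour. It rose by 3.71 (SE 0.60, edgeR adjusted p = 0.00214), by 3.14 without normal 1 and by 4.69 without normal 2.

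The genes whose levels were most like those of Syt4, the member highest in tumour, were sought by distance of log2(TPM + 0.1) over the 5 libraries among 14069 protein-coding tested genes. The nearest was Bex1, an adaptor-like protein of neurons and endocrine cells, at a distance of 0.106, with 0 and 0 TPM in normal pancreas and 26.83, 32.65 and 23.05 TPM in tumour against 25.86, 31.47 and 21.87 TPM for Syt4. Next came the histone genes Hist1h4b (0.345) and Hist1h4d (0.361), Ly6h (0.453) and Syt5 (0.481). With 5 libraries, any gene absent from normal pancreas and even in tumour at a like level will be near.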

How the data were processed

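RNA of 3 tumours and 2 normal pancreas samples was sequenced. The submitters' processing notes name Trim Galore 0.60, STAR 2.7 and RSEM 1.31 with mm10 and GRCm38, with settings and annotation not given in the sources used here. Per gene, the authors deposited RSEM's estimated counts, its TPM values and, as another quantity, its transcript lengths. The FPKM table was not used, nor were 92 spike-in rows, which had 0 counts. After rounding to whole numbers, estimated counts entered edgeR 4.0.16 under R 4.3.3 (quasi-likelihood test, TMM, filterByExpr defaults, tissue as the only term, Benjamini-Hochberg over 16810 genes, threshold 0.05), after the code was tested on simulated data. The standard error is the log2 fold change over the square root of F. A gene at 0 in a group is given as a bound against 3 counts over the group, and 1 to 3 counts as a pooled ratio with a 95% exact binomial interval. For equal granule level, library scaling was the median of ratios over the list's genes counted in every library, and folds there use those scaled sizes. No replicate pair agreed within sampling noise (chi-square per degree of freedom 27.3 to 59.0). Of 55573 gene identifiers, 55180 are in GENCODE M21 with the same version, whose GRCm38 coordinates are given. Named genes are all Syt genes, in each list up to 3 tested genes of smallest p, and the 5 genes nearest to the member of highest tumour TPM. Th, Myc and some marker genes are named as well. Alternatives were total counts, upper-quartile scaling, DESeq2 1.42.0, no filter, protein-coding genes only, limma 3.58.1 on log2(TPM + 1) and log2(TPM + 0.1), tumours 1 and 2 summed, each library left out, and scaling on islet transcription factors. The members, lists and rules were chosen with earlier results of these data known. A marker gene is not reported here and was left out of its list.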

Additional observations from a re-analysis of the deposited data

How the results depend on the processing

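All 130 member fold changes computed under the alternatives to the TMM fit stayed higher in tumour and past the threshold, which does not cover the granule and islet transcription factor scalings given below. They were smallest for limma on log2(TPM + 1), where the pseudocount shrinks low genes and the lowest was 0.87. Most members were at or near 0 in normal pancreas, and these fits could hardly have turned such genes to lower. Of all tested genes, 93.3% were called higher with total counts alone. With total counts alone, the other synaptotagmins called lower numbered 0, related C2 proteins 10 higher and 0 lower, neuronal and endocrine fusion genes 26 higher and 0 lower, and exocrine and widespread fusion genes 13 higher and 1 lower. Syt3 reversed to 1.79, Sytl1 to 1.01, Vamp8 to 0.070 and Napa to 1.82. With limma on log2(TPM + 1), other synaptotagmins were 1 higher and 1 lower, neuronal and endocrine fusion genes 0 lower, exocrine and widespread fusion genes 7 higher and 3 lower, and Syt3 reversed to 0.054 (limma adjusted p = 0.774). With limma on log2(TPM + 0.1), other synaptotagmins were 1 lower, neuronal and endocrine fusion genes 0 lower, exocrine and widespread fusion genes 7 higher and 3 lower, and Syt3 reversed to 0.075 (limma adjusted p = 0.772). Why the limma fits on TPM differ was not tested. The share of all tested genes called in the limma fits is not given, so these counts have no background beside them. Leaving out 1 library each, other synaptotagmins called higher ranged from 0 to 2, neuronal and endocrine fusion genes called lower from 1 to 2, and exocrine and widespread fusion genes called higher from 0 to 1. At equal granule level, members called higher ranged from 1 to 3 with a library left out, Syt13 (range -0.091 to 0.47) reversed without normal 1 and Syt14 (range -0.45 to 0.020) without tumour 3. Scaled on 8 of 17 islet transcription factors, 9 members were higher and 0 lower, against 8.54% of all tested genes higher and 70.8% lower. On that scaling Syt7, Syt9, Syt11 and Syt14 reversed to 2.17, 1.91, 1.39 and 3.796. The share of the calcium sensors among the members was 37.1% in tumour with counts in place of TPM, and 4.49% in normal pancreas over all 17 genes. That last share leaves out Syt3, which binds calcium but is not a member and held 55.3% and 57.1% in the normal libraries. Shares from unrounded counts over effective length were added after seeing the data. Leaving out a normal library leaves 1, which is then assumed to vary like the tumours. No paired analysis was possible because replicate numbers were given in accession order and pair no samples. With 2 normal libraries and near 0 counts in them, folds of Syt1, Syt2, Syt5 and Syt9 are known only within wide intervals.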
